A study of Mus musculus with 9 samples.

Results

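The mitochondrial ribosome translates the few messenger RNAs that the mitochondrial genome encodes, all of them for subunits of the respiratory chain and ATP synthase. Its RNAs are made in the mitochondrion, but its proteins are encoded in the nucleus, made in the cytosol and imported. Some of these proteins have a counterpart in the bacterial ribosome, and others are specific to mitochondria. The genes described here are those whose symbol starts with Mrpl (large subunit) or Mrps (small subunit) followed by a digit. This rule found 78 of the 21951 genes in the table, without use of any measured value.

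Messenger RNA was measured in BV2 cells, an immortalised mouse microglia line labelled wild type, in 9 libraries. The 3 triol-irradiated libraries came from cells that received 10 µM of the steroid 5α-androst-3β,5α,6β-triol (triol) 30 minutes ahead of a 10 Gy dose of X-rays. The 3 irradiated libraries came from cells given vehicle, which was 20% HP-β-CD (a cyclodextrin), before the same 10 Gy, and the 3 control libraries from cells given vehicle and no X-rays. The treatment labels of triol-irradiated replicates 2 and 3 spell the steroid with 7β and 8β in place of 6β, while all 3 titles give 6β. The time from irradiation to RNA extraction was not given in the sources used here, and no group with triol alone was analysed. Whether the libraries of a group stem from separate cultures is not said. The p-values below thus measure library-to-library spread that could be technical.

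Triol-irradiated libraries held 17230866 to 18944051 counts, irradiated libraries 13879062 to 15192203 and control libraries 14118475 to 17705424. The 14 microglia markers were all detected in each group, and they summed to 1882 to 1931 CPM (counts scaled to a common library size, after TMM normalisation) in triol-irradiated, 1872 to 1933 in irradiated and 2471 to 2594 in control libraries. Of the 13 that could be tested, 12 had a lower estimate in irradiated than in control cells. For 10 of them the difference passed the edgeR test used below, where 22.2% of all tested genes were called lower. In RNA from whole cultures, fewer cells of a kind and less RNA per cell cannot be told apart.

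By the symbols and the known structure of the mammalian mitoribosome, 51 members belong to the large subunit and 26 to the small one. Mrps30 and Mrps18a carry small-subunit names but are proteins of the large subunit, and they were counted there. Mrps36 is a member by name only, since its protein is a subunit of the 2-oxoglutarate dehydrogenase complex. The large subunit list holds 30 proteins with a bacterial counterpart and 21 specific to mitochondria, and the small subunit list 16 and 10.

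All members except Mrpl53 were detected in every library and passed the filter on low counts, which left 77. Mrpl53, a protein at the base of the large subunit's stalk, had 0 counts in all 9 libraries, which allows up to 0.158 to 0.216 CPM depending on the library (3 counts, for counting error only). Gene Gm42688 on the same strand covers 88.0% of its exonic bases, and the part of this overlap in the count of 0 was not tested. The 77 detected members had 155 to 2375 counts in a library.

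Per kb of exon, the levels of the detected members in control cells ran from 2.54 CPM for Mrpl33 to 47.2 CPM for Mrpl34. The next highest were Mrps21 with 43.5 CPM per kb, Mrps15 with 41.5, Mrps2 with 39.2 and Mrpl24 with 38.4. The lowest after Mrpl33 were Mrps35 with 3.28 CPM per kb, Mrpl47 with 3.69 and Mrpl58 with 4.08. The median was 14.4 CPM per kb in the large subunit and 10.3 in the small subunit. The length used counts every annotated exon of a gene, also those of isoforms that BV2 cells may not make. Subunits of the same ribosome thus spanned a wide range of mRNA levels by this measure.

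**Figure D1:**
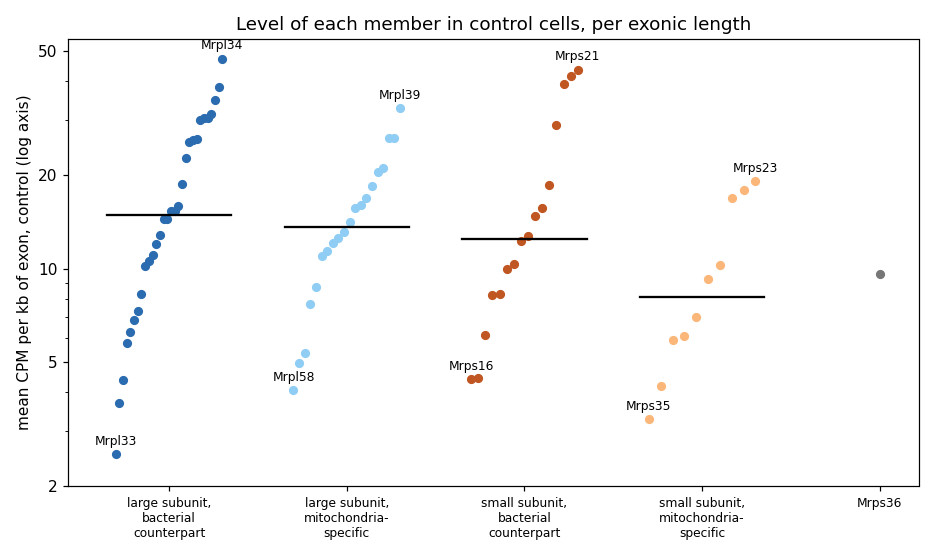
Mean level of each detected member in the 3 control libraries, in CPM per kb of exon on a log axis, by subunit and kind of protein; lines are group medians. Mrpl34 stands highest at 47.2 and Mrpl33 lowest at 2.54, both in the large subunit class with a bacterial counterpart.

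After irradiation, more of these genes were called higher than lower, and all changes were small. Relative to control cells, 22 of the 77 tested members passed the edgeR quasi-likelihood test at an adjusted p of 0.05 over all 11295 tested genes, 16 higher and 6 lower. Of all tested genes 44.3% passed, 22.1% higher and 22.2% lower, so the members' share, 28.6%, was below the background. Calls higher, 16 of 77, were near the background share, and calls lower, 6 of 77, were below it. The median log2 fold change was 0.03 over the members and 0.01 over all tested genes. The members ran from -0.49 to 0.36, while 5% of all tested genes lay below -0.39 and 5% above 0.88. For 40 of the 77 members, and for 40.2% of all genes, the 95% interval of the change lay inside 1.2-fold in either direction.

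**Figure D2:**
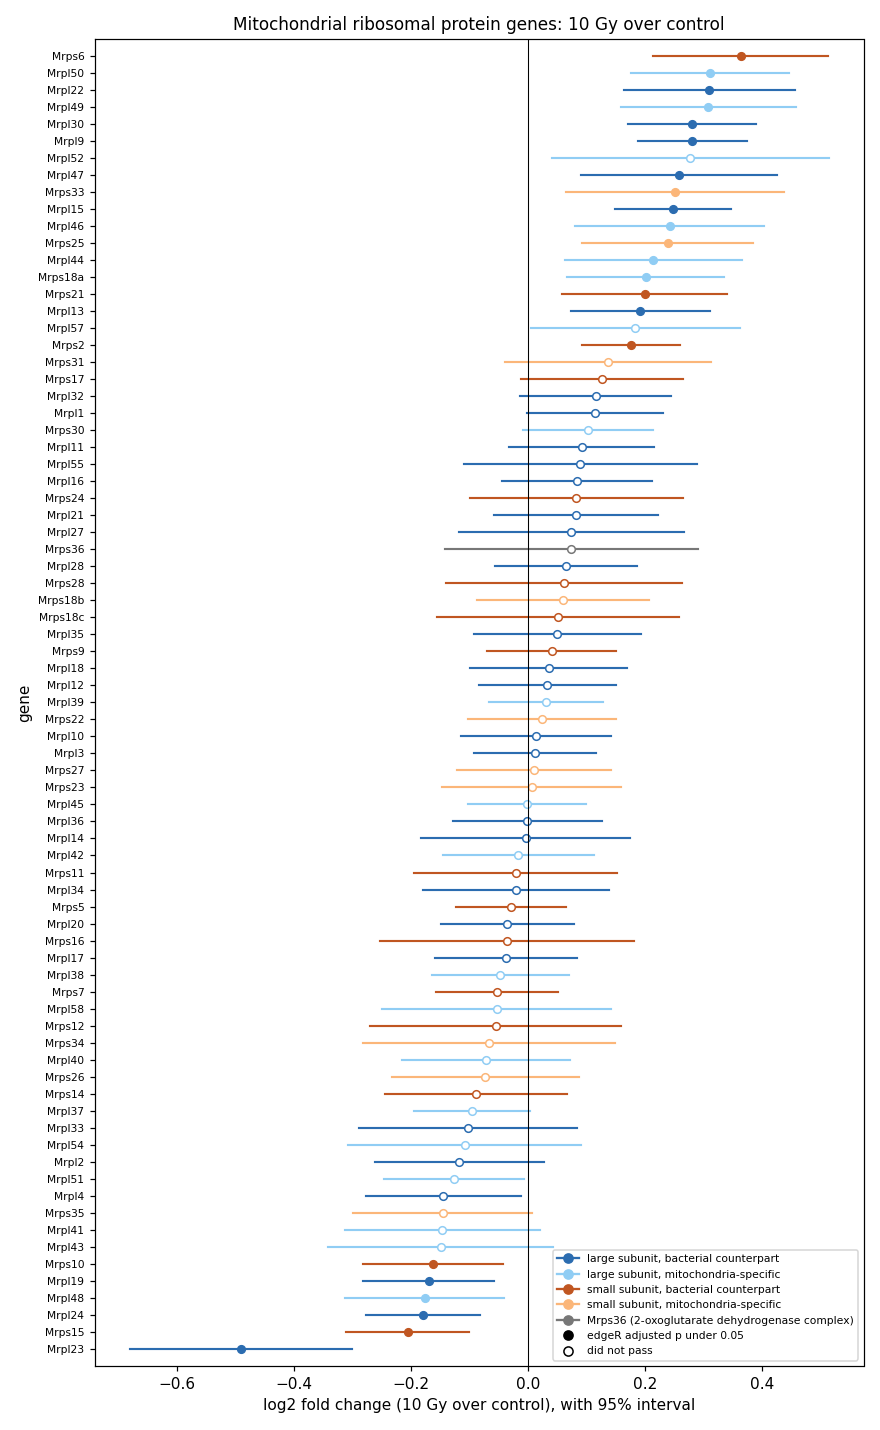
Log2 fold change of 77 members in irradiated over control cells, with 95% intervals; filled points passed the edgeR test and open points did not, and colours give the subunit and kind of protein. Mrps6 is at the top with 0.36 and Mrpl23 stands apart at the bottom with -0.49.

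Mrps6, a small-subunit protein with a bacterial counterpart, had the largest rise. It measured 28.6, 26.3 and 27.6 CPM in triol-irradiated, 28.9, 27.6 and 30.7 CPM in irradiated and 23.1, 21.6 and 23.3 CPM in control libraries. Both irradiated groups lay wholly above the control libraries, and they overlapped each other. The rise in irradiated over control cells was 0.36 (SE 0.07, log2, adjusted p = 8.68e-05), or 1.29-fold. On the same strand 19.9% of its exonic bases are shared with Slc5a3, a myo-inositol transporter, and Gm49711, and Slc5a3 rose too, by 0.29 (SE 0.05, log2, adjusted p = 1.54e-05); the part of shared reads in the rise of Mrps6 was not tested.

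Mrpl50, a mitochondria-specific protein of the large subunit, measured 33.8, 32.7 and 35.3 CPM in triol-irradiated, 37.4, 35.7 and 37.6 CPM in irradiated and 31.5, 28.4 and 29.6 CPM in control libraries. The 3 groups did not overlap, with irradiated libraries highest and control libraries lowest. Its rise in irradiated over control cells was 0.31 (SE 0.07, log2, adjusted p = 0.00019).

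The largest fall was that of Mrpl23, a protein with a bacterial counterpart at the exit of the tunnel through which the nascent chain leaves the large subunit. It measured 15.3, 15.8 and 13.3 CPM in triol-irradiated, 15.4, 16.2 and 14.1 CPM in irradiated and 23.2, 22.4 and 18.5 CPM in control libraries. Every library of both irradiated groups lay below every control library. The fall in irradiated over control cells was 0.49 on the log2 scale (SE 0.09, adjusted p = 3.52e-05), which left 0.712 of the control level. Mrpl23 has a near-identical copy elsewhere in the genome, Mrpl23-ps1, so its counts are uncertain as those of a single gene.

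Mrps15, an rRNA-binding protein of the small subunit, measured 57.3, 57.9 and 56.7 CPM in triol-irradiated, 64.3, 59.6 and 58.6 CPM in irradiated and 71.9, 66.6 and 72.1 CPM in control libraries. The groups did not overlap, and the triol-irradiated libraries were lowest. The log2 change in irradiated over control cells was -0.21 (SE 0.05, adjusted p = 0.00123).

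**Figure D3:**
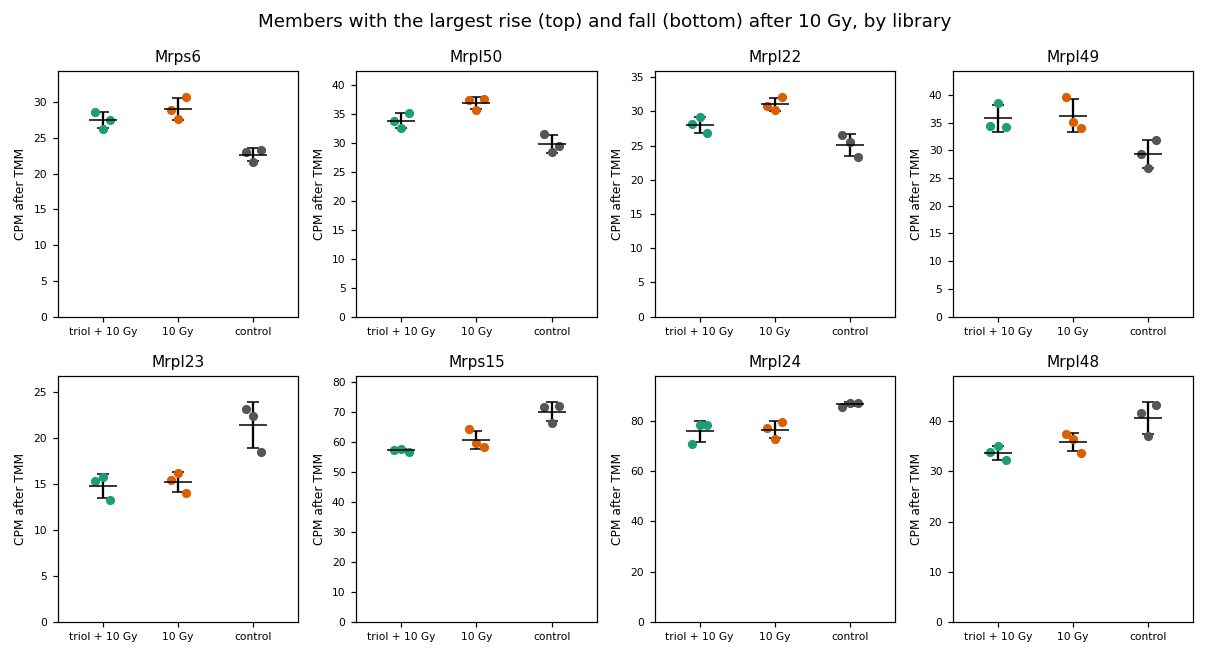
CPM in each library for the 4 members with the largest called rise (top row) and the 4 with the largest called fall (bottom row) in irradiated over control cells; bars give mean and SD of 3 libraries, and each axis starts at 0. In Mrps6 all 6 irradiated libraries, with or without triol, lie above the control libraries, and in Mrpl23 all 6 lie below.

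The promoters of the 2 members with the largest rise and the 2 with the largest fall are printed here as the regulatory sequence next to the starts of the genes that changed most. Each window runs from 250 bases before to 50 after the RefSeq transcript start (GRCm38.p6). Capitals mark a match to 1 of 4 short motifs searched on both strands: GCATGCG, the core of the site of NRF1; CCGGAAG, bound by ETS factors such as GABP; ATGGCGG, the core of the site of YY1; and CACGTG, the E-box bound by MYC among others. NRF1, GABP and YY1 are known regulators of nuclear genes for mitochondrial proteins.
Mrps6, chr16:92058086-92058385, plus strand: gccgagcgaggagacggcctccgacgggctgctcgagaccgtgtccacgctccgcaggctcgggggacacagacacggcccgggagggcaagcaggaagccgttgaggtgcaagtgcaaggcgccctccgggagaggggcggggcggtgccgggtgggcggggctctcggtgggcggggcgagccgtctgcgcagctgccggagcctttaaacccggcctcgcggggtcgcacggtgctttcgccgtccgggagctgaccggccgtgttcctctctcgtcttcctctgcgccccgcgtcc
Mrpl50, chr4:49521034-49521333, minus strand: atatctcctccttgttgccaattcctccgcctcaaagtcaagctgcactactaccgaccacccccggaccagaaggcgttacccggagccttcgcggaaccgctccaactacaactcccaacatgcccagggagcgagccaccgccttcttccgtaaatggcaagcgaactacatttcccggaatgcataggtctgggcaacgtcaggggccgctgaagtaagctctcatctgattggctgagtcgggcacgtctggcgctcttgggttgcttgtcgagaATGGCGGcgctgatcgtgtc
Mrpl23, chr7:142532782-142533081, plus strand: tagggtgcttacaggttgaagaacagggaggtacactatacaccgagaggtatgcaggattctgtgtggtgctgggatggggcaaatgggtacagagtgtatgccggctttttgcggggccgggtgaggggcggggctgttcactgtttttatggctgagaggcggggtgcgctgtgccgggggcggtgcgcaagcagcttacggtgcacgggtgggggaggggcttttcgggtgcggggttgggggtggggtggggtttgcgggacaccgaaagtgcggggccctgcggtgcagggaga
Mrps15, chr4:126046678-126046977, plus strand: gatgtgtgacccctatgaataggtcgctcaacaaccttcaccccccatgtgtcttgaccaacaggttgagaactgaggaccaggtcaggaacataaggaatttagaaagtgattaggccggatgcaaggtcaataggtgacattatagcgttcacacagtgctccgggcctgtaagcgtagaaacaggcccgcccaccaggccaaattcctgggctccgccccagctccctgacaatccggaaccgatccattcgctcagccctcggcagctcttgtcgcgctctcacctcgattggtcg
Of the 4 windows, only that of Mrpl50 held a match, to the YY1 core on the strand printed, beginning at base 31 after the start. The window of Mrps6 was 73.7% G and C, and that of Mrps15 55.0%.

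RefSeq windows were matched by symbol for 69 of the 78 members, 75 windows in all. The ETS motif was in 34.7% of the members' windows, against 18.3% of the windows of all tested genes and 8.86% of all 32851 windows in the table. The YY1 core was in 17.3% of the members' windows, against 8.29% and 4.05%, and the NRF1 core in 10.7%, against 6.56% and 3.58%. The E-box was in 9.33%, against 10.0% and 7.15%. Counted by gene, with a match in any window, the ETS motif was in 26 of the 69 members, the YY1 core in 13, the NRF1 core in 8 and the E-box in 5. The YY1 core was in 5 of the 14 members with a window that rose after irradiation, in 0 of the 5 that fell and in 7 of the 49 not called. The ETS motif was in 4, 1 and 20 of the same members. These are counts of letters, which show no binding, and a window without a match says only that these letters are not in it. Of the genes for factors whose motifs were searched, Yy1 changed by 0.13 (SE 0.03, log2, adjusted p = 0.00119) and Myc by -0.71 (SE 0.16, adjusted p = 0.000406) in irradiated over control cells. Nrf1 (-0.11, adjusted p = 0.187), Gabpa (-0.03, adjusted p = 0.556) and Gabpb1 (0.14, adjusted p = 0.156) were not called.

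In the large subunit, 9 of the 30 proteins with a bacterial counterpart were called, 6 higher and 3 lower, and 6 of the 20 tested mitochondria-specific proteins, 5 higher and 1 lower. Of the large-subunit members 30.0% were thus called, below the 44.3% of all tested genes. Mrpl9, which is near the base of the L1 stalk in bacteria, measured 85.0, 82.4 and 86.8 CPM in triol-irradiated, 85.2, 85.5 and 83.9 CPM in irradiated and 67.2, 70.4 and 71.9 CPM in control libraries. Both irradiated groups lay above all control libraries, and the rise in irradiated cells, 0.28 (SE 0.05, log2, adjusted p = 3.09e-06), had the smallest adjusted p of all members. Mrpl30 averaged 62.1 ± 2.64 CPM in irradiated and 51.0 ± 1.58 CPM in control libraries (SD, n = 3 each), a log2 change of 0.28. Mrpl49, specific to mitochondria, averaged 36.2 ± 2.97 CPM in irradiated and 29.3 ± 2.56 CPM in control libraries, a log2 change of 0.31. Mrpl15 averaged 73.6 ± 2.52 CPM in irradiated and 62.1 ± 1.44 CPM in control libraries, a log2 change of 0.25. These 3 genes did not overlap between irradiated and control libraries. Mrpl19 fell, with 48.9, 51.8 and 47.8 CPM in irradiated and 55.9, 56.9 and 54.0 CPM in control libraries, a log2 change of -0.17 (SE 0.06, adjusted p = 0.0115); 36.0% of its exonic bases lie opposite Gcfc2. Without control replicate 2 its adjusted p was 0.054, and without irradiated replicate 3 it was 0.0608.

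Of the 8 proteins at the tunnel exit, 5 were called, 3 higher and 2 lower, where 22.1% of all tested genes were called higher and 22.2% lower. Mrpl22, which lines the tunnel, measured 28.1, 29.2 and 26.8 CPM in triol-irradiated, 30.8, 30.3 and 32.1 CPM in irradiated and 26.5, 25.5 and 23.3 CPM in control libraries. The 3 groups did not overlap, and its rise in irradiated over control cells was 0.31 (SE 0.07, log2, adjusted p = 0.000492); it has a near-identical copy, Gm6997. Mrpl47, which corresponds to a bacterial protein at the tunnel's rim, measured 20.2, 20.5 and 21.5 CPM in triol-irradiated, 20.0, 18.7 and 19.7 CPM in irradiated and 16.5, 16.2 and 16.3 CPM in control libraries. All 3 groups stood apart, here with the triol-irradiated libraries highest, and the log2 change in irradiated over control cells was 0.26 (SE 0.08, adjusted p = 0.0104). Of its exonic bases 24.2% lie opposite Actl6a and Ndufb5, and Actl6a rose by 0.20 (log2). Mrpl44, an RNase III-like protein, had 33.3, 39.6 and 31.8 CPM in irradiated and 33.1, 28.6 and 28.8 CPM in control libraries, which overlap; its log2 change of 0.21 had an adjusted p of 0.0185, and without irradiated replicate 2 it was 0.11 with an adjusted p of 0.289.

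On the falling side of the tunnel exit, Mrpl24 stood beside Mrpl23. It measured 70.8, 78.2 and 78.3 CPM in triol-irradiated, 76.9, 72.7 and 79.5 CPM in irradiated and 85.6, 86.9 and 87.0 CPM in control libraries. All libraries of the irradiated groups were below all control libraries, and the log2 change in irradiated over control cells was -0.18 (SE 0.05, adjusted p = 0.00224). Of its exonic bases 26.3% lie opposite Rrnad1. The other 3 proteins of the site, Mrpl17, Mrpl39 and Mrpl45, the last of which faces the inner membrane where nascent chains are inserted, were not called, with log2 changes from -0.04 to 0.03.

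In the central protuberance, where the mammalian large subunit carries a tRNA in place of the bacterial small rRNA, 1 of 7 proteins was called higher and 1 lower. That is 28.6%, where 44.3% of all tested genes were called. Mrpl46 had 21.6, 21.6 and 22.2 CPM in irradiated and 19.1, 17.2 and 19.2 CPM in control libraries, which did not overlap, a log2 change of 0.24 (SE 0.08, adjusted p = 0.0124). Mrpl48 had 37.4, 36.4 and 33.8 CPM in irradiated and 41.6, 37.0 and 43.2 CPM in control libraries, which overlap, a log2 change of -0.18 (SE 0.07, adjusted p = 0.0299). Both calls were lost with DESeq2, with adjusted p of 0.0615 and 0.0677. Mrpl58, a peptidyl-tRNA hydrolase built into the large subunit, was not called, with a log2 change of -0.05 and a 95% interval of -0.25 to 0.14.

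No protein of the stalk that recruits translation factors was called among the 4 tested, where 44.3% of all tested genes were called. The log2 changes of these 4 ran from -0.11 for Mrpl54 to 0.09 for Mrpl11. None of the 5 proteins around the peptidyl transferase centre was called either, between -0.14 for Mrpl4 and 0.08 for Mrpl16. The 95% interval of Mrpl4 was -0.28 to -0.01, and its adjusted p was 0.0691.

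In the small subunit, 5 of the 16 proteins with a bacterial counterpart were called, 3 higher and 2 lower, and 2 of the 10 mitochondria-specific proteins, both higher. Of the small-subunit members 26.9% were thus called, below the 44.3% of all tested genes. Mrps2, among the 6 proteins of the decoding centre and mRNA channel, had the highest CPM of all members. It measured 124, 130.5 and 125 CPM in triol-irradiated, 129, 134 and 125 CPM in irradiated and 109.8, 115 and 119 CPM in control libraries. Both irradiated groups were above all control libraries, and the log2 change in irradiated over control cells was 0.18 (SE 0.04, adjusted p = 0.000546). The other 5 of that site were not called, and Mrps35, specific to mitochondria, was lowest among them at -0.15 (SE 0.08, adjusted p = 0.116).

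Mrps25 had 33.8, 31.2 and 32.2 CPM in irradiated and 29.1, 25.4 and 28.2 CPM in control libraries, with no overlap, and Mrps33 had 16.9, 18.8 and 19.1 CPM in irradiated and 17.7, 14.5 and 14.1 CPM in control libraries, with overlap. Both are specific to mitochondria, and their log2 changes were 0.24 (SE 0.07, adjusted p = 0.00663) and 0.25 (SE 0.09, adjusted p = 0.0251). Of the exonic bases of Mrps25, 69.8% lie opposite Nr2c2, whose log2 change was -0.04. Mrps10 had 45.7, 45.3 and 41.8 CPM in irradiated and 51.2, 48.3 and 49.2 CPM in control libraries, with no overlap, a log2 change of -0.16 (SE 0.06, adjusted p = 0.0233), and has a near-identical copy.

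The 3 Mrps18 genes encode related proteins that sit in different places. Mrps18a, of the large subunit, had 38.4, 37.1 and 35.7 CPM in irradiated and 33.5, 31.0 and 32.4 CPM in control libraries. Its libraries did not overlap, and its log2 change was 0.20 (SE 0.07, adjusted p = 0.0124). Mrps18b and Mrps18c, of the small subunit, were not called, with log2 changes of 0.06 (95% interval -0.09 to 0.21) and 0.05 (-0.16 to 0.26). Mrps30, also a large-subunit protein despite its name, changed by 0.10 (-0.01 to 0.21) without passing the test. Mrps36, the subunit of 2-oxoglutarate dehydrogenase, was not called at 0.07 (-0.14 to 0.29).

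Of the 77 members, 20 had all irradiated libraries above all control libraries and 8 had all below, against 25.2% and 25.5% of all tested genes. Of the 22 calls, 11 passed the threshold under every alternative tried that kept the member: Mrps6, Mrpl50, Mrpl22, Mrpl49, Mrpl30, Mrpl9, Mrpl15 and Mrps2 on the rising side, and Mrpl23, Mrps15 and Mrpl24 on the falling side. The other 11 missed it under at least 1 alternative. Without control replicate 2 the number called was 14, and Mrpl13, Mrpl19, Mrpl44, Mrpl46, Mrps18a, Mrps21, Mrps25 and Mrps33 were lost. Mrpl48 and Mrps10 were lost without control replicate 1 and also without irradiated replicate 3, which Mrpl19 and Mrps33 needed too. Mrpl44, Mrpl48 and Mrps33 were lost without control replicate 3, Mrps18a and Mrps21 without irradiated replicate 1, and Mrpl44 and Mrps33 without irradiated replicate 2. Mrpl47 was lost with DESeq2 alone, at an adjusted p of 0.0544. DESeq2 called 10 members higher and 5 lower.

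A pair of members shares a start region. Mrpl46 and Mrps11 lie head to head on chromosome 7, and 12.2% of the exonic bases of Mrpl46 lie opposite Mrps11. Their promoter windows, chr7:78783040-78783339 on the minus strand and chr7:78782881-78783180 on the plus strand, share 141 bases; the pair was chosen after the annotation and values were seen. The window of Mrps11, printed to show the shared stretch, carries the YY1 core read on the other strand, in capitals, beginning at base -109 from its start. This match lies outside the shared bases, and the window of Mrpl46 held no match.
Mrps11, chr7:78782881-78783180, plus strand: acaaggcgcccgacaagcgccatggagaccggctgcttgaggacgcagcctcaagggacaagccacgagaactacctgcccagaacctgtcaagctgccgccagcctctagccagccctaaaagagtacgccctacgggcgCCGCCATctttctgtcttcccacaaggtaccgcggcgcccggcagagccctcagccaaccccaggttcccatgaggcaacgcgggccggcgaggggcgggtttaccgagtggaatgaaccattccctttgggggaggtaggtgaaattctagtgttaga
Mrps11 had 17.8, 17.8 and 17.1 CPM in irradiated and 18.7, 18.2 and 16.7 CPM in control libraries, a log2 change of -0.02 (95% interval -0.19 to 0.15), beside the 0.24 (0.08 to 0.40) of Mrpl46. The difference between the changes of the 2 genes was not tested.

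Triol given before the 10 Gy left no member past the threshold. Relative to irradiated cells, 0 of 77 members were called by edgeR or limma-voom, and the smallest adjusted p with edgeR was 0.37. DESeq2 called none either, but here it gave an adjusted p to only 1161 of 16729 genes. A gene without one was counted as not called, so the DESeq2 count says little about the members. Of all tested genes 0.106% were called, 12 in number, 0.0974% higher and 0.00885% lower. At an unadjusted p of 0.05, 8 members and 865 of all 11295 genes passed. For 59 of the 77 members the 95% interval of the difference lay inside 1.2-fold in either direction, as it did for 67.4% of all genes. The log2 differences of the members ran from -0.26 to 0.14.

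Most members had a slightly lower estimate with triol. In the comparison of triol-irradiated with irradiated cells, 63 of 77 members (81.8%) had a log2 difference below 0, against 49.2% of all tested genes. Their median was -0.05, and that of all genes 0.00 to 2 decimals. The median stayed below 0 under each alternative scaling. Between libraries of a group, the members' median log2 CPM had an SD of 0.042, pooled over the 3 groups. This is the spread of the middle level in single libraries. The spread of the median difference itself was not measured. Of the 50 tested large-subunit members 40 were lower, and of the 26 small-subunit members 22. All triol-irradiated libraries were below all irradiated libraries for 10 members and above them for 2, against 5.88% and 7.35% of all genes. Members share their libraries, so these counts are a description of 6 libraries and carry no test.

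**Figure D4:**
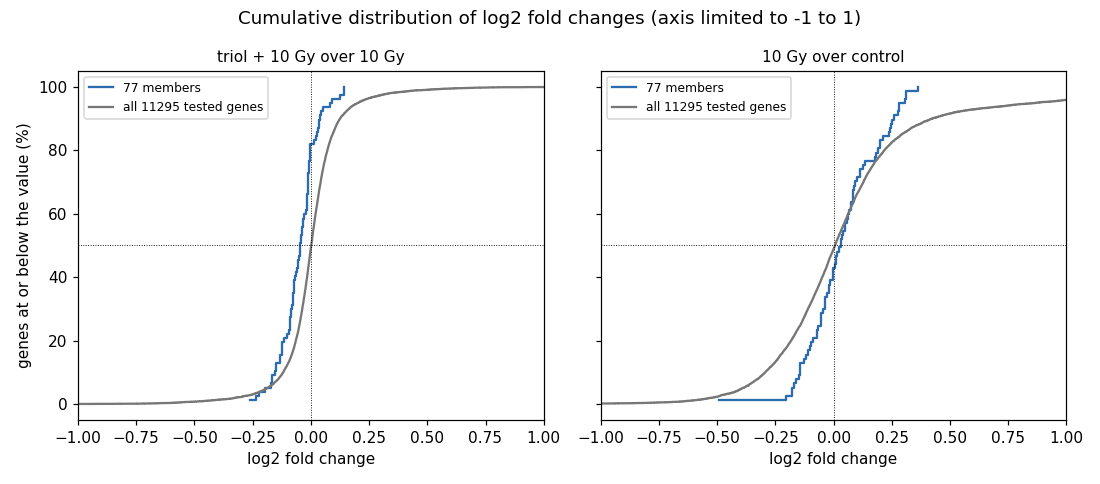
Share of genes at or below each log2 fold change, for 77 members and for all 11295 tested genes; left, triol-irradiated over irradiated, right, irradiated over control. On the left the members' curve crosses 50% at -0.05, and on the right at 0.03.

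The 8 members that passed the unadjusted p were named after their values were seen. Mrpl57, specific to mitochondria, had 15.5, 14.2 and 15.4 CPM in triol-irradiated, 16.8, 18.2 and 19.1 CPM in irradiated and 16.2, 15.4 and 16.0 CPM in control libraries. Irradiated libraries were highest and stood apart from both other groups, while triol-irradiated and control libraries overlapped. Its difference between triol-irradiated and irradiated cells was -0.26 (SE 0.09, log2, adjusted p = 0.37). Mrps21 had 31.4, 29.6 and 35.2 CPM in triol-irradiated, 38.9, 36.6 and 35.1 CPM in irradiated and 32.7, 30.9 and 32.8 CPM in control libraries. It was called higher in irradiated than in control cells at 0.20 (SE 0.07, log2, adjusted p = 0.0187), and differed by -0.20 (SE 0.07, adjusted p = 0.382) between triol-irradiated and irradiated cells, whose libraries overlapped; it has a near-identical copy, Gm6181.

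Mrpl42 had 36.5, 37.0 and 37.7 CPM in triol-irradiated, 41.0, 40.0 and 42.8 CPM in irradiated and 45.8, 39.8 and 39.9 CPM in control libraries, a log2 difference between triol-irradiated and irradiated cells of -0.15 (SE 0.06, adjusted p = 0.554). Here the triol-irradiated libraries were the lowest of all 9. Mrpl22, given above by library, differed by -0.15 (SE 0.07, adjusted p = 0.629). Mrps28, Mrps16 and Mrps23 differed by -0.24, -0.22 and -0.17, and Mrpl21 by 0.14, all on the log2 scale and with adjusted p of 0.554 to 0.635. Mrps6 differed by -0.08 (95% interval -0.23 to 0.06), and Mrps36 by -0.15 (-0.36 to 0.06).

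Markers of other cell types were measured beside these genes in 4 lists. The 15 hepatocyte markers summed to 10.6 to 11.1 CPM in triol-irradiated libraries, with every marker detected, to 1.05 to 3.62 CPM in irradiated libraries, with Apoc3, Cyp3a11, Fga and Fgg at 0, and to 1.15 to 2.86 CPM in control libraries, with 6 markers at 0. Of the 3 hepatocyte markers that could be tested, 2 were called higher and 0 lower in triol-irradiated than in irradiated cells. The smallest adjusted p was 3.45e-05, and of all tested genes 0.106% were called. The filter keeps a gene with enough counts in 1 group alone. A marker high only with triol could thus enter the test through that group. These calls therefore add nothing to the sums. The 7 neuron markers summed to 2.33 to 3.05 CPM in triol-irradiated, 1.14 to 2.05 CPM in irradiated and 0.130 to 0.802 CPM in control libraries. The 1 of them that could be tested was called higher in irradiated than in control cells, at 4.20 (log2, adjusted p = 5.92e-08). All 7 together had 2 to 14 counts in a control library, so this marker passed the filter through the irradiated groups. The call thus follows in part from the filter. The tested marker differed by 0.12 (log2, adjusted p = 0.959) between triol-irradiated and irradiated cells. In irradiated libraries 5 of the 7 (Gad1, Rbfox3, Snap25, Stmn2 and Syt1) were at 0, while in control and in triol-irradiated libraries 0 were. These 5 thus did not share the rise of the tested marker in irradiated over control cells. The 6 astrocyte markers summed to 0.626 to 1.68 CPM in triol-irradiated, 0.523 to 0.928 CPM in irradiated and 0.115 to 0.289 CPM in control libraries, with Aqp4 at 0 in each group. The 6 oligodendrocyte markers summed to 5.72 to 7.77 CPM in triol-irradiated, 5.16 to 7.04 CPM in irradiated and 5.70 to 6.19 CPM in control libraries, with Olig1 and Olig2 at 0 in each group. The hepatocyte and neuron sums thus lay higher in triol-irradiated than in irradiated libraries, and the astrocyte and oligodendrocyte sums overlapped. The part of such RNA in the members' lower estimates was not tested.

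Against control cells, triol-irradiated cells had 22 of 77 members called, 11 higher and 11 lower, where 43.3% of all tested genes were called, 21.5% higher and 21.7% lower. The 95% interval lay inside 1.2-fold for 41 members and for 42.6% of all genes. The median log2 change was -0.01, and with upper-quartile scaling 0.01. The comparisons of triol-irradiated and of irradiated cells with control cells share the control libraries. The changes of single members in both are therefore given side by side and not as 2 independent results. Mrpl9 was at 0.28 in triol-irradiated over control and 0.28 in irradiated over control cells, Mrpl23 at -0.53 and -0.49, Mrps15 at -0.29 and -0.21, Mrpl47 at 0.35 and 0.26, and Mrpl49 at 0.29 and 0.31. Among the changes of triol-irradiated over control cells that of Mrpl23 was lowest (SE 0.09, adjusted p = 6.06e-06) and that of Mrpl47 highest (SE 0.08, adjusted p = 0.000437).

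The 6 members called in irradiated but not in triol-irradiated cells were Mrpl22, Mrpl44, Mrps18a, Mrps21, Mrps25 and Mrps33. The 6 called in triol-irradiated but not in irradiated cells were Mrpl21, which was higher than in control cells at 0.22 (SE 0.07, log2, adjusted p = 0.00632), and Mrpl38, Mrpl42, Mrps16, Mrps26 and Mrps35, which were lower. Mrps16 changed by -0.26 (SE 0.11, adjusted p = 0.0441) and Mrps35 by -0.22 (SE 0.07, adjusted p = 0.0148). Of the 22 calls against control cells, 12 held under every alternative. Without control replicate 2, Mrpl15, Mrpl38, Mrpl46, Mrpl50, Mrps16, Mrps26 and Mrps35 were lost, and Mrps16 was lost without any 1 of control replicates 1 and 2 and the 3 triol-irradiated replicates. None of the 12 members called in 1 comparison alone was called when triol-irradiated cells were compared with irradiated cells directly, so a call in 1 group of irradiated cells is not shown to be particular to it.

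The summed level of the members followed the same course. It was 2847 ± 4.18 CPM in triol-irradiated, 2936 ± 38.7 CPM in irradiated and 2861 ± 25.0 CPM in control libraries (SD, n = 3 each). The irradiated libraries, at 2906 to 2980 CPM, lay above the triol-irradiated libraries, at 2843 to 2852 CPM, and above the control libraries, at 2844 to 2890 CPM. As a share of all counts the members took 0.286% to 0.287% in triol-irradiated, 0.293% to 0.301% in irradiated and 0.281% to 0.284% in control libraries. The 83 cytosolic ribosomal protein genes, whose products make up the ribosome of the cytosol, summed to 35911 ± 416 CPM, 37177 ± 690.2 CPM and 35980 ± 849 CPM in the same order of groups. Of their 81 tested genes 75 had a lower estimate in triol-irradiated than in irradiated cells, with 0 called. In irradiated over control cells 24 were called higher and 3 lower, 33.3% together. Of 79 tested nuclear genes of the respiratory chain, 57 had a lower estimate with triol. After irradiation 4 of the 79 were called higher and 11 lower, 19.0% together. Of all tested genes 44.3% were called after irradiation, 22.1% higher and 22.2% lower. Lower estimates with triol were also seen in other gene groups.

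**Figure D5:**
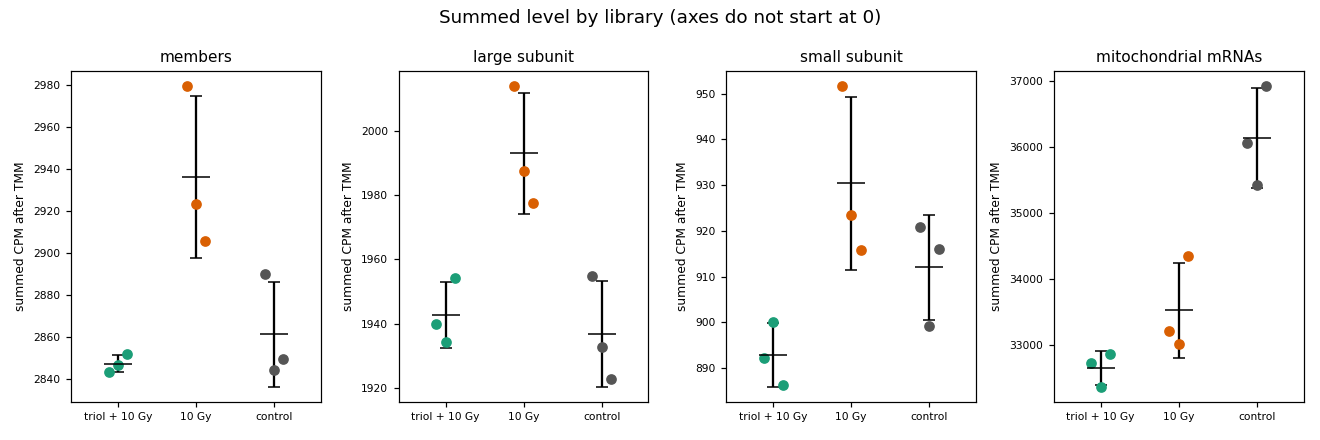
Summed CPM in each library of the 78 members, of the large and the small subunit, and of the 13 mRNAs of the mitochondrial genome, with mean and SD of 3 libraries; the axes do not start at 0. The members sum highest in irradiated libraries, at 2906 to 2980, and the mitochondrial mRNAs sum highest in control libraries, at 35421 to 36927.

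The 13 mRNAs that the mitoribosome translates, encoded in the mitochondrial genome, summed to 32361 to 32858 CPM in triol-irradiated, 33013 to 34342 CPM in irradiated and 35421 to 36927 CPM in control libraries, and no 2 groups overlapped. mt-Co1, a subunit of complex IV, made up more of these sums than any other, with a mean of 18761 CPM in triol-irradiated, 18611 CPM in irradiated and 20457 CPM in control libraries. In irradiated over control cells 3 of the 13 were called, all lower, a share of 23.1% where 22.2% of all tested genes were called lower: mt-Cytb at -0.14 (SE 0.03, adjusted p = 2.58e-05), mt-Nd1 at -0.14 and mt-Co1 at -0.14 (log2). The other 10 were not called, and 5 of the 13 had an estimate above 0. In triol-irradiated over control cells 8 of 13 were called, all lower, where 21.7% of all tested genes were.

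Between triol-irradiated and irradiated cells 12 of the 13 had a lower estimate with triol, where 49.2% of all tested genes had. The unadjusted p of edgeR was under 0.05 for 8 of the 13 and for 865 of all 11295 genes. The 13 share their libraries, so these counts carry no test. Only mt-Co2, another subunit of complex IV, was called, 7.69% of the 13 where 0.106% of all tested genes were called. It had 34.9, 30.8 and 25.4 CPM in triol-irradiated, 37.7, 40.6 and 40.4 CPM in irradiated and 34.9, 36.9 and 37.9 CPM in control libraries. Triol-irradiated libraries lay below all irradiated libraries, with a log2 difference of -0.39 (SE 0.08, adjusted p = 0.0196). mt-Co2 is 1 of 6 neighbouring genes, with mt-Atp8, mt-Atp6, mt-Co3, mt-Nd3 and mt-Nd4l, that had 1.47 to 47.6 CPM in all libraries, while mt-Co1 before them had at least 18380 CPM and mt-Nd4 after them at least 1112 CPM. The handling of reads that match several places was not given in the sources used here, and its part in these values was not tested, so the levels of these 6 genes are uncertain.

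Of the 5 mitoribosome proteins whose genes carry other names, 2 rose and 1 fell in irradiated over control cells, where 44.3% of all tested genes were called. Dap3, a GTP-binding protein of the small subunit, had 133, 126 and 120.02 CPM in triol-irradiated, 129, 134 and 129 CPM in irradiated and 98.0, 106 and 104 CPM in control libraries. Both irradiated groups were above all control libraries, and the change in irradiated cells was 0.34 (SE 0.04, log2, adjusted p = 1.12e-08). Ptcd3, a pentatricopeptide repeat protein of the small subunit, changed by 0.35 (SE 0.04, adjusted p = 1.40e-08), and Aurkaip1, also of the small subunit, by -0.20 (SE 0.05, adjusted p = 0.00179). Chchd1 and Gadd45gip1 were not called.

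Among 24 tested assembly factors and rRNA-modifying enzymes, 5 were called higher and 2 lower in irradiated than in control cells, 29.2% where 44.3% of all tested genes were called. Mtg1, a GTPase of large-subunit assembly, measured 9.42, 8.88 and 9.24 CPM in triol-irradiated, 12.5, 8.92 and 10.7 CPM in irradiated and 14.9, 14.0 and 14.9 CPM in control libraries. It fell by 0.44 in irradiated cells (SE 0.11, log2, adjusted p = 0.000859). Mrm2, a methyltransferase of the large rRNA with 65 to 115 counts in a library, changed by 0.42 (SE 0.16, adjusted p = 0.0337). It had 4.79, 7.57 and 6.01 CPM in irradiated and 4.69, 3.89 and 5.15 CPM in control libraries, which overlap. Of 16 tested translation factors, activators and mRNA stability factors, 2 were called higher and 2 lower, 25.0%. Gfm1, the elongation factor that moves the tRNAs, rose by 0.17 (SE 0.04, adjusted p = 0.000431) and Lrpprc, which stabilises mitochondrial mRNAs, by 0.17, while Guf1, a GTPase of elongation, fell by 0.30 (SE 0.06, adjusted p = 0.000134) and Oxa1l, the insertase that receives nascent chains at the tunnel exit, fell by 0.19 (SE 0.06, adjusted p = 0.00555).

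Of 12 tested genes for mitochondrial transcription and its nuclear regulators, 3 were called higher and 2 lower in irradiated than in control cells, 41.7% where 44.3% of all tested genes were called. Tfam, which packages mitochondrial DNA and starts its transcription, averaged 47.8 ± 1.46 CPM in triol-irradiated, 51.3 ± 1.48 CPM in irradiated and 42.8 ± 1.38 CPM in control libraries (SD, n = 3 each). Its libraries did not overlap between irradiated and control cells, and the change was 0.26 (SE 0.06, log2, adjusted p = 0.000309). Myc, given above by its log2 change, was called lower, at 4.57 ± 0.733 CPM in irradiated and 7.39 ± 1.53 CPM in control libraries. No gene of the assembly, translation or transcription lists was called between triol-irradiated and irradiated cells, where edgeR gave unadjusted p under 0.05 for 0, 0 and 2 of them.

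The SE of a change was larger for members with fewer counts. The 38 members with fewer counts, on average 190 to 539 per library, had a median SE of 0.09 on the log2 scale in irradiated over control cells, and the 39 with more counts, 542 to 1984, one of 0.06. Called members were 10 of the 38 and 12 of the 39. Among the members, 18 share over 10% of their exonic bases with another gene on either strand, 6 of them among the 22 called after irradiation. Without these 18, 16 of 60 members were called, 12 higher and 4 lower.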

How the data were processed

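RNA of 9 libraries was analysed, 3 in each group. Libraries were made with the NEBNext Ultra RNA kit, per the labels' protocols. The deposited values are whole-number counts of reads per gene, as the authors produced them, without normalisation. Tools named in the submitters' processing notes are fastp 0.18.0, FastQC, STAR 2.7.1a and featureCounts of Subread 1.6.3, with build GRCm38. Strandedness of the counting and handling of multiply matching reads were not given in the sources used here.

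Members, gene lists and the rule for named genes (called members with the 12 largest changes in each direction, and members named for their site or role) were chosen with earlier results of these data known. All 21951 genes matched GENCODE M21 by identifier and symbol, which gave coordinates and overlaps; near-identical copies were matches of at least 95% identity over 50% of a transcript. The filter of edgeR 4.0.16 kept 11295 genes. Each comparison used the two-sided quasi-likelihood F test with TMM, robust dispersion and 1 fit over the 9 libraries with 6 residual degrees of freedom, and Benjamini-Hochberg adjustment over all tested genes at 0.05. Unless the text names another tool, adjusted p-values are edgeR's. CPM are after TMM, with SD over 3 libraries, and the SE is that of the log2 fold change. Alternatives were DESeq2 1.42.0, limma-voom (limma 3.58.1), upper-quartile and RLE scaling, no filter, only the 2 groups compared, a replicate block and leaving out each library. Counting the members without overlaps or without Mrps36 was added after seeing the data. R was 4.3.3. Protein sequences were not used here.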

Additional observations from a re-analysis of the deposited data

How the results depend on the processing

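The direction of the members' median was the same under the alternatives in irradiated over control cells, where it ran from 0.01 to 0.06, and in triol-irradiated over irradiated cells, where it ran from -0.06 to -0.04. Members called higher in irradiated over control cells numbered 10 with DESeq2. Leaving out a library in turn gave 14 to 21 members called there, 9 to 17 higher and 3 to 7 lower; the lowest counts came without control replicate 2 (14 called, 9 higher) and without irradiated replicate 3 (3 lower). In triol-irradiated over control cells 6 members were called lower with DESeq2, 7 with upper-quartile scaling and 7 to 12 with a library left out, the fewest without control replicate 2. No alternative called a member between triol-irradiated and irradiated cells, but DESeq2 gave most genes no adjusted p there. The number of all genes called in that comparison was 21 with DESeq2, 36 with no filter, 22 with only the 2 groups and 6 to 9 with a library left out. The causes of these shifts were not tested, beyond the loss of libraries or of the filter itself.

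Replicate numbers were shared across groups. Deviations from the group mean correlated at -0.0522 to 0.0442 between same-numbered libraries, and at -0.0680 to 0.0559 between differently numbered ones. Such correlations over all genes cannot exclude a small effect of a shared culture or preparation. With a replicate block 22 genes were called between triol-irradiated and irradiated cells, none of them a member, and 23 members in irradiated over control cells. Near-zero estimates changed sign for Mrps11 in irradiated over control cells, 0.008 with upper-quartile scaling and -0.0723 to 0.0063 with a library left out, and with a library left out for Mrps18c (-0.0095 to 0.1263) and Mrps36 (-0.0175 to 0.1725). Members with fewer counts had the larger standard errors, and Mrpl53 was not detectable in these counts.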
